A study of Mus musculus with 6 samples.

Results

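Control keratocytes, the resident cells of the normal corneal stroma, were described from the 3 control libraries of a series of 6. Members were taken by their sample titles, which name the control group, and the other 3 libraries, from mice in which Ptch1 was deleted with Prrx1-creERT, entered no value below. The labels give the control mice as 10 weeks old, with 3 doses of tamoxifen (TAM) and a treatment time of 1 month. Their corneal keratocytes were sorted by flow cytometry before RNA sequencing. In the paper, keratocytes were isolated 1 month after tamoxifen, and its age at dosing plus this month exceeds 10 weeks. Whether 10 weeks is the age at dosing or at collection is not settled. The tamoxifen was shared by both groups. The labels name these mice as controls and carry WT in the sample titles, with no further genotype. Whether they carried the Cre driver or floxed alleles, which surface markers or reporter defined the sort, and how many corneas went into a library are not given in the sources used here. The profile is therefore that of tamoxifen-treated control stroma as sorted, and not of an untreated cornea.

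Keratocytes are quiescent, flattened cells of neural crest origin that lie between the collagen lamellae of the stroma. They secrete thin collagen fibrils built mainly of type I and type V collagen and coat them with small leucine-rich proteoglycans (SLRPs), whose core proteins and sulfated sugar chains set fibril diameter and spacing. Their cytoplasm is packed with soluble enzymes, the corneal crystallins, which are held to reduce light scatter. Corneal clarity also depends on the movement of water and ions across the tissue.

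The libraries held 22477804, 20258439 and 24788063 estimated counts in control replicates 1, 2 and 3. A gene with 3 counts had 0.133, 0.148 and 0.121 CPM (its count scaled to a common library total) at these depths, which was taken as the limit for a gene with no count. This limit, like every counting interval, covers counting error only. Levels are given as TPM, a unit of transcript abundance, which divides counts by transcript length and sums to a fixed total, so that a level is a share of the library and a higher share of 1 gene lowers that of the others. Pearson's r of log2(TPM + 1) over 12791 genes, which are not independent replicates, was 0.946 between replicates 1 and 2, 0.939 between 1 and 3 and 0.967 between 2 and 3. Of the 50 most abundant genes, 46 were the same in all 3 libraries. As a check for a library deposited in duplicate, the counts of each pair were compared with counting noise, and with a chi-square per degree of freedom between 35.1 and 63.3 all 3 were kept as separate libraries. As only 1 group of 3 was described, no test between groups was made and no p-value is given, and errors are the SD over these 3 libraries.

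The marker genes bore out the label. All 6 genes taken as keratocyte markers lay among the 100 most abundant of the 17606 genes in the table. Dcn, the core protein of decorin, ranked at the top, Aldh3a1, an aldehyde dehydrogenase that is the main corneal crystallin of the mouse, came next, and Col1a1, the alpha 1 chain of type I collagen, followed. Kera (keratocan) held rank 5 and Lum (lumican) rank 8, and both encode keratan sulfate proteoglycans of the stroma. Tkt, the pentose phosphate enzyme transketolase, had 2084, 2236 and 1993 TPM. Transcripts of the Y chromosome were present in all 3 libraries, with Eif2s3y at 4.19, 4.83 and 7.45 TPM.

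Markers of other cells of the eye were detected to a differing extent, least for the corneal epithelium and melanocytes and most for leukocytes. Of 18 corneal epithelial genes measured, 9 reached a mean of 1 TPM and 3 a mean of 10 TPM. The list summed to 0.00885% to 0.0115% of a library. Krt12, the keratin that defines corneal epithelium, had 0 counts in all 3 libraries, and Pax6, Trp63 and Dsp each had a mean under 0.2 TPM. The highest epithelial gene was Krt15, a basal keratin, at 31.4, 52.4 and 59.4 TPM, which made up 47.8% of the list.

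Leukocyte markers summed to 0.820%, 0.763% and 0.719% of the libraries, and 19 of 20 reached 1 TPM. The sum was carried by Cd74, the invariant chain of MHC class II, at 3233, 3092 and 2912 TPM, which placed it at rank 29 of all genes. Lyz2, a lysozyme of myeloid cells, had 1251 ± 119 TPM and H2-Ab1, a class II chain, 1038 ± 140 TPM. The macrophage growth factor receptor Csf1r was at 151 ± 24.4 TPM and the pan-leukocyte phosphatase Ptprc (CD45) at 16.4 ± 6.85 TPM. Leukocyte genes were thus present in every library, with the highest sum in replicate 1 and the lowest in replicate 3. The members did not all follow this order. Of the 19 at 1 TPM or more, 10 were highest in replicate 1, 5 in replicate 2 and 4 in replicate 3. Over all genes at 1 TPM or more, 34.9%, 27.9% and 37.2% were highest in replicates 1, 2 and 3. Csf1r, at 123.5, 169.6 and 160.3 TPM, was lowest in replicate 1. In sorted bulk RNA, more cells of another type and more RNA per such cell cannot be told apart, and their part in the levels below was not tested.

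Vascular and lymphatic endothelial markers summed to 0.0572% to 0.0688%, with 13 of 15 at 1 TPM or more. Kdr, a VEGF receptor, had 194.5 ± 34.7 TPM, Pecam1 41.8 ± 13.5 TPM and the endothelial cadherin Cdh5 5.62 ± 1.48 TPM. Schwann cell markers summed to 0.0815% to 0.0866%, with 10 of 11 at 1 TPM or more. Most of that sum was Pmp22, a myelin protein also made by fibroblasts, whereas Sox10 was at 6.96 ± 1.83 TPM. Mural cell markers (9 of 10 at 1 TPM or more) summed to 0.0184% to 0.0190%, mostly from Rgs5 at 121 ± 4.30 TPM. Of 6 melanocyte markers, 2 reached 1 TPM. Corneal endothelial markers summed to 0.0403% to 0.0469%, with 6 of 8 at 1 TPM or more and 4 at 10 TPM or more. Col8a2, a collagen of Descemet's membrane, had 340.39, 367.34 and 312.18 TPM and made up 77.5% of this list. Alcam was at 51.1 ± 4.06 TPM, while the endothelial transporter Slc4a11 had 0.700, 6.08 and 3.13 TPM and Car12 had no count. Scleral and conjunctival fibroblast markers summed to 0.0233% to 0.0271% and were led by Ly6c1 at 88.1 ± 11.9 TPM and Tnmd at 87.3 ± 0.131 TPM.

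The transcriptome was concentrated in few genes. A mean of at least 1 TPM was reached by 12791 genes, at least 10 TPM by 8010, at least 100 TPM by 1508 and at least 1000 TPM by 102. These 102 genes held 41.6% of all transcripts, 221 genes were enough for 50%, and 4015 genes for 90%. In contrast, 1354 genes had 0 in all 3 libraries. The 10 most abundant genes held 18.4%, 18.5% and 20.9% of the libraries (19.3 ± 1.40%), with the highest share in replicate 3. 

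**Figure D1:**
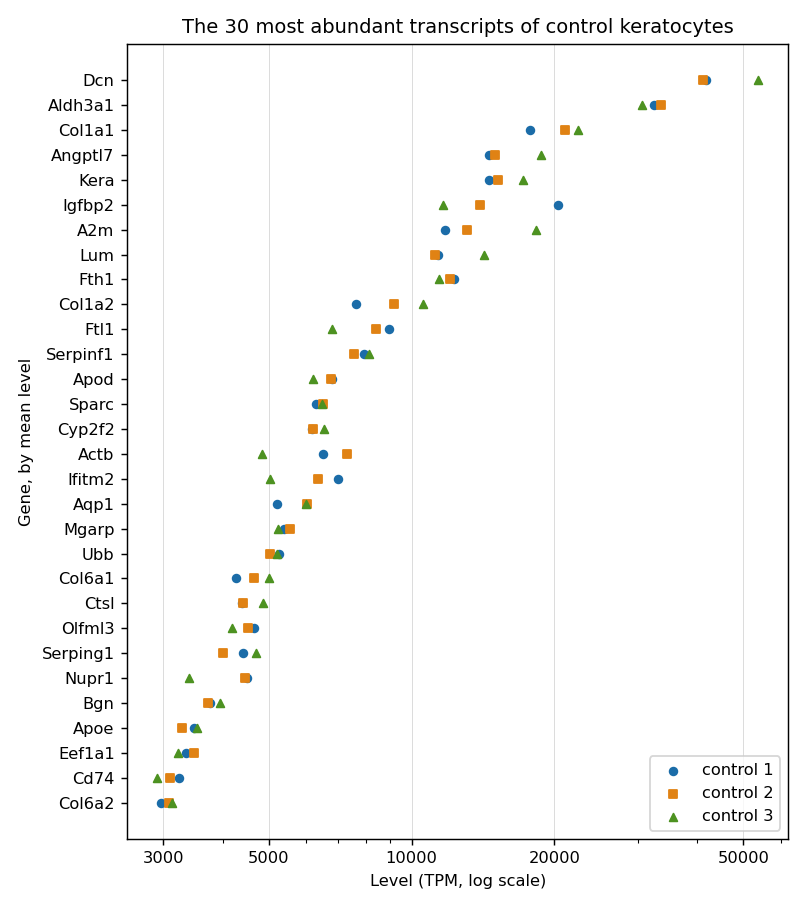
The level in TPM (log scale) of the 30 genes with the highest mean in control keratocytes, with 1 symbol for each of the 3 control libraries. Dcn lay between 41143 and 53824 TPM and Col6a2, at rank 30, between 2966 and 3121 TPM; the symbols of Igfbp2, A2m and Actb lie far apart and those of Sparc and Ubb nearly coincide.

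Dcn was at 41683, 41143 and 53824 TPM (45550 ± 7171). Aldh3a1 was at 32451, 33579 and 30662 TPM (32231 ± 1471). Col1a1 was at 17805, 21013 and 22473 TPM (20430 ± 2388). These 3 genes kept their order among themselves in every library, and their ranges did not overlap each other. The next 5 genes were less clearly ordered. Angptl7, a secreted angiopoietin-like protein of the cornea and trabecular meshwork, was at 14569, 14981 and 18759 TPM. Kera was at 14566, 15215 and 17140 TPM, and Igfbp2, which binds insulin-like growth factors, at 20354, 13949 and 11675 TPM. A2m, the protease inhibitor alpha-2-macroglobulin, was at 11737, 13088 and 18329 TPM and Lum at 11341, 11215 and 14201 TPM. The ranges of Igfbp2 and A2m overlapped those of the other 4, while Lum lay below Angptl7 and Kera in every library. The ranges of Igfbp2, Angptl7 and A2m also overlapped that of Col1a1, and in replicate 1 Igfbp2 stood above Col1a1. Igfbp2 was highest in replicate 1, while Angptl7, Kera, A2m and Lum were highest in replicate 3.

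The ferritin heavy chain Fth1, an iron store, followed with 11926 ± 429 TPM and Col1a2 with 9128 ± 1463 TPM. Ranks 11 to 20 were filled by Ftl1 (ferritin light chain, 8060 ± 1129 TPM), Serpinf1 (pigment epithelium-derived factor, an inhibitor of vessel growth, 7878 ± 296 TPM), Apod (apolipoprotein D, 6579 ± 330 TPM), Sparc (6426 ± 113 TPM), the cytochrome P450 Cyp2f2 (6303 ± 198 TPM), Actb (6213 ± 1265 TPM), Ifitm2 (6127 ± 992 TPM), the water channel Aqp1 (5736 ± 458 TPM), the mitochondrial protein Mgarp (5389 ± 153 TPM) and the ubiquitin gene Ubb (5160 ± 118 TPM). Col6a1, Ctsl, Olfml3, Serping1, Nupr1, Bgn, Apoe, Eef1a1, Cd74 and Col6a2 completed the first 30, between 4642 and 3058 TPM. For Ftl1, Actb, Ubb, Ctsl and Eef1a1 the estimated counts were not whole numbers, which shows that reads were divided with similar sequences. Of the 30 genes, 17 were in none of the matrix, crystallin, transport, signaling and receptor lists and together made 11.4% of the transcripts.

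The sequence just before the start of transcription was available from RefSeq (build GRCm38.p6) for 80 of the 100 most abundant genes, and was searched for the letters TATAAA, the core of the TATA box, on both strands within 50 bases of the start. The motif was found in 7 of the 80, or 8.75%, all on the strand of the gene: Fos, Ppia, Igfbp4, Ccn1, H2-D1, Anxa2 and Dkk2. Over all 27025 promoters listed it was found in 3.78% on either strand, over genes of the table with 100 TPM or more in 2.24% and over those under 1 TPM in 5.59%. The 4 holders whose window overlaps no annotated exon are shown with the 60 bases before the start, 5′ to 3′ on the strand of the gene and with the motif in capitals, so that its distance to the start can be compared.
Fos (chr12:85473830-85473889, plus strand): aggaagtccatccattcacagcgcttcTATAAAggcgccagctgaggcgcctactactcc
Igfbp4 (chr11:99041184-99041243, plus strand): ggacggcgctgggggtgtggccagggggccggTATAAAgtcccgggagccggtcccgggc
Ccn1 (chr3:145649986-145650045, minus strand): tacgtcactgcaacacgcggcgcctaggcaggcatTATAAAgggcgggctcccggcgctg
Dkk2 (chr3:132085232-132085291, plus strand): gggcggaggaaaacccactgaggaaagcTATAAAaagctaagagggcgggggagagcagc
The first base of the motif lay at -33 in Fos, -28 in Igfbp4, -25 in Ccn1 and -32 in Dkk2, counted from the start. In the holders not shown it lay at -29 in Ppia, -26 in H2-D1 and -17 in Anxa2. The 2 most abundant genes with a printable window and without the motif are shown for comparison.
Angptl7 (chr4:148500463-148500522, minus strand): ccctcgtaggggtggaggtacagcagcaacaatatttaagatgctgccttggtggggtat
Igfbp2 (chr1:72824420-72824479, plus strand): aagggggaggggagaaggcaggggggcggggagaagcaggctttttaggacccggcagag
A match is a description of the letters in this window, and no binding was measured.

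Matrix genes made up the largest share of the 5 classes, with 16.4%, 17.2% and 19.5% of the transcripts (17.7 ± 1.63%), highest in replicate 3. The class held 256 genes, of which 205 reached 1 TPM and 75 reached 100 TPM. In contrast, the 601 transport genes together held 2.13 ± 0.0785%. All 5 classes combined held 1489 genes and 28.0 ± 1.15% of the transcripts.

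**Figure D2:**
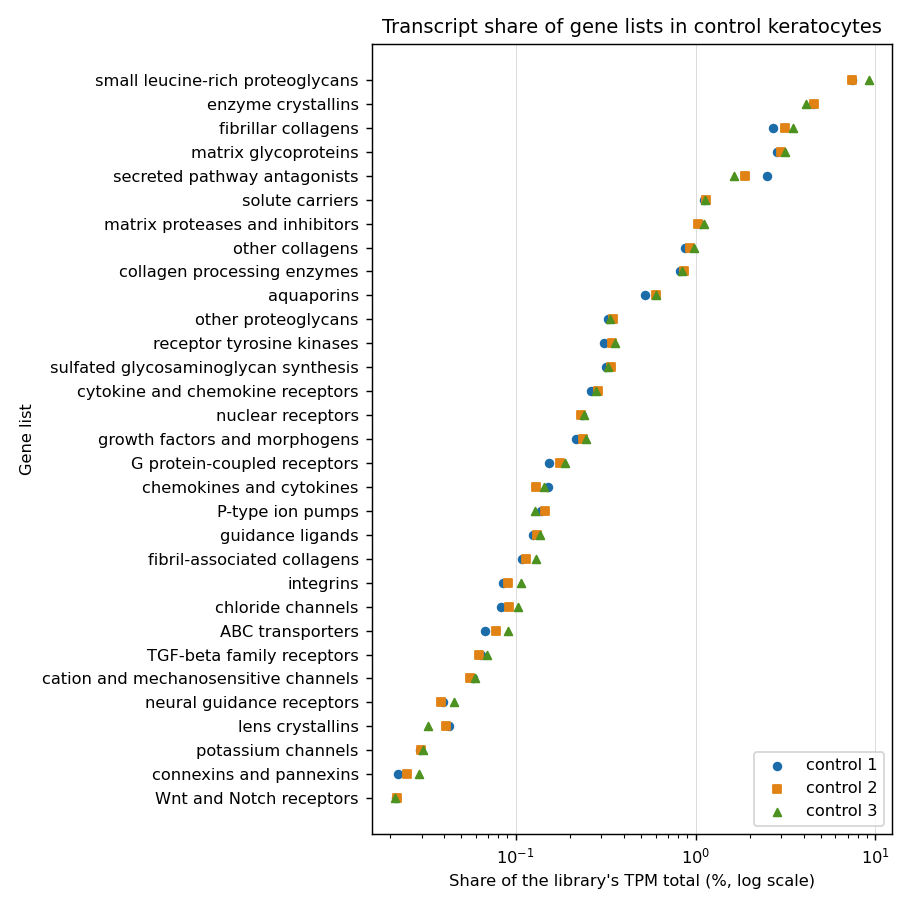
The share of each library's TPM total (percent, log scale) held by each gene list of the matrix, crystallin, transport, signaling and receptor classes, with 1 symbol for each of the 3 control libraries. SLRPs lay between 7.38% and 9.19%, enzyme crystallins between 4.11% and 4.56%, and the secreted pathway antagonists, led by Igfbp2, between 1.63% and 2.51%.

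SLRPs held 7.38%, 7.40% and 9.19% of the transcripts, and 14 of 17 reached 1 TPM. Replicate 3 stood above the other two, and 9 of the 14 were highest there. Over all 12791 genes at 1 TPM or more, 34.9% were highest in replicate 1, 27.9% in replicate 2 and 37.2% in replicate 3, against which this and the later counts of this kind can be read. Dcn, a chondroitin/dermatan sulfate proteoglycan, made up 57.0% of the list. Within a library, decorin transcripts outnumbered lumican transcripts 3.68, 3.67 and 3.79 to 1, a ratio that differed little between libraries. The ratio of Dcn to Kera was 2.90 ± 0.221 and that of Kera to Lum 1.28 ± 0.0749. Biglycan (Bgn), the closest relative of decorin, was at 3812 ± 121 TPM, 11.9 ± 1.48 times under Dcn. Prelp followed with 1397 ± 57.2 TPM, fibromodulin (Fmod) with 867 ± 60.7 TPM and osteoglycin (Ogn), which carries keratan sulfate in the cornea as mimecan, with 317 ± 62.3 TPM. Asporin (Aspn, 5.21 ± 1.89 TPM) and osteoadherin (Omd, 5.10 ± 4.47 TPM) were near the lower end.

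Fibrillar collagens held 2.69%, 3.16% and 3.47% of the transcripts. Col1a1 and Col1a2, whose products assemble in a ratio of chains fixed by the type I trimer, had a transcript ratio of 2.33, 2.29 and 2.13 (2.25 ± 0.107). Type V collagen, which limits fibril diameter, was represented by Col5a1 at 860.66, 824.14 and 820.98 TPM and Col5a2 at 476.31, 521.30 and 696.27 TPM. Col5a2 was highest in replicate 3 whereas Col5a1 was not, and their ratio moved from 1.81 in replicate 1 to 1.18 in replicate 3. Col1a1 stood 24.5 ± 3.45 times above Col5a1. The type III chain Col3a1, common in skin and vessels, was at 20.8, 38.97 and 58.39 TPM, 593 ± 240 times under Col1a1. Col2a1, the chain of cartilage and vitreous, had no count in any library.

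Among the collagens that decorate fibrils, which held 0.117 ± 0.0110%, Col12a1 had 788 ± 30.1 TPM, Col16a1 307 ± 68.1 TPM and Col14a1 54.6 ± 13.4 TPM. All 5 members at 1 TPM or more were highest in replicate 3. The other collagens held 0.926 ± 0.0534%. The beaded-filament collagen VI was present with 3 chains: Col6a1 at 4642 ± 369 TPM, Col6a2 at 3058 ± 81.3 TPM and Col6a3 at 903 ± 66.4 TPM. The ratio of Col6a1 to Col6a2 was 1.52 ± 0.0824 and to Col6a3 5.14 ± 0.140. Col8a2 stood 95.4 ± 8.97 times above its partner chain Col8a1, which was at 3.57 ± 0.132 TPM. Basement membrane chains Col4a1 and Col4a2 were at 61.5 ± 18.3 and 61.2 ± 7.63 TPM.

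Matrix glycoproteins held 2.99 ± 0.163%, spread over many genes, as 26 of 79 reached 100 TPM and the highest, Sparc, made up only 21.5% of the list. Sparc, a collagen-binding protein, was at 6297, 6503 and 6479 TPM. Mfap4, an elastic fiber component, was at 2467 ± 21.7 TPM, Thbs4 (thrombospondin 4) at 2305 ± 192 TPM, Matn4 (matrilin 4) at 2055, 2301 and 2193 TPM, Spon1 (spondin 1) at 1749 ± 259 TPM and Smoc2 at 1725 ± 217 TPM. Of the 65 members at 1 TPM or more, 41 were highest in replicate 3, 13 in replicate 2 and 11 in replicate 1. Outside the SLRPs, proteoglycans were led by the cell surface syndecan Sdc4 at 1738 ± 153 TPM, which made up 51.7% of its list, followed by the glypicans Gpc4 (375 ± 43.4 TPM) and Gpc3 (350.3 ± 47.2 TPM).

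Enzymes that fold, modify and crosslink collagen held 0.841 ± 0.0188% and varied little as a group. Pcolce, the enhancer of the procollagen C-proteinase, was at 2710, 2658 and 2625 TPM, the lysyl hydroxylase Plod1 at 1512 ± 101 TPM and the collagen chaperone Serpinh1 at 864 ± 143 TPM. P4hb had 752 ± 70.7 TPM, Ppib 548 ± 28.1 TPM and the lysyl oxidase relative Loxl1 457 ± 52.8 TPM, above Lox itself at 109.5 ± 18.1 TPM. In this list 13 of 25 genes were highest in replicate 1, 8 in replicate 2 and 4 in replicate 3, while the summed share, at 0.822%, 0.860% and 0.843%, was lowest in replicate 1.

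Proteases and their inhibitors held 1.06 ± 0.0421%, of which 74.0% was Serpinf1. Mmp2, a gelatinase, was the most abundant metalloprotease at 1411, 1606 and 1789 TPM. Next came the inhibitor Timp2 (297 ± 44.3 TPM), the collagen-degrading cathepsin Ctsk (295 ± 4.13 TPM), Timp3 (155 ± 29.6 TPM) and Mmp23 (152 ± 16.3 TPM). Genes for the synthesis of sulfated sugar chains held 0.329 ± 0.0102%, with 36 of 39 at 1 TPM or more. The list was led by enzymes of keratan sulfate, the chain extender B3gnt7 at 715.21, 776.88 and 713.92 TPM and the sulfotransferase Chst5 at 716.92, 759.23 and 663.17 TPM. Chst1, another keratan sulfate sulfotransferase, had 0, 0 and 18 counts. Chondroitin and dermatan sulfate synthesis was represented by Chst12 (375 ± 28.6 TPM) and Chpf (134 ± 11.8 TPM), and sulfate activation by Papss1 (242 ± 21.2 TPM).

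The crystallin class, of enzyme and lens crystallins, held 4.52%, 4.60% and 4.14% of the transcripts (4.42 ± 0.244%). In counts, which are not per length, the class held 2.91%. Aldh3a1 made up 73.5% of the enzyme crystallins, and all 16 members were at 10 TPM or more. Its level was 80.6 ± 5.26 times that of Aldh1a1, a crystallin in other mammals, at 400 ± 16.8 TPM, and 15.3 ± 0.284 times that of Tkt. The ratio to Tkt was among the steadiest of those given here, with 15.6, 15.0 and 15.4 in the 3 libraries. Peptidylprolyl isomerase Ppia was at 3031, 2791 and 2262 TPM, Gapdh at 1735 ± 197 TPM, the glutathione transferase Gstp1 at 919 ± 154 TPM and lactate dehydrogenase Ldha at 809 ± 55.0 TPM. These housekeeping enzymes, recruited as crystallins in some species, were lower in replicate 3 than in replicate 1. Of the 6 crystallins of the lens in the table, Cryab, a small heat shock protein, made up 99.9%, at 425.22, 411.80 and 326.01 TPM, while Cryaa, Crybb1 and Cryba4 had no count.

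Transport genes held 2.04%, 2.18% and 2.17% of the transcripts, and 357 of 601 reached 1 TPM. Aqp1, a water channel, was at 5207, 6017 and 5983 TPM, made up 99.3% of the aquaporins and stood 184 ± 22.4 times above Aqp3, the next of the family. Aqp5, the channel of corneal epithelium, had a mean of 0.323 ± 0.430 TPM. Solute carriers held 1.13 ± 0.0160% over 323 genes, of which 212 reached 1 TPM. The mitochondrial ADP/ATP carriers Slc25a4 (1739 ± 72.4 TPM) and Slc25a5 (519 ± 31.4 TPM) and the phosphate carrier Slc25a3 (457 ± 46.2 TPM) led them. The anion exchanger Slc26a7 was at 306.76, 387.25 and 555.28 TPM and varied more than the others, with its highest level in replicate 3. Zinc transporters Slc39a7 (395 ± 21.0 TPM) and Slc39a1 (379 ± 73.3 TPM) came next.

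Of the ion pumps, which held 0.138 ± 0.00847%, the regulatory subunit Fxyd6 made up 54.0% at 743 ± 79.5 TPM. The beta subunit Atp1b3 of the sodium pump was at 166 ± 32.0 TPM. Channels were low: 30 of 77 potassium channel genes reached 1 TPM and only Kcnk5, an acid-sensitive leak channel, reached 100 TPM, at 86.1, 105 and 112 TPM. Kcnh6 (54.7, 43.2 and 42.0 TPM) and Kcns1 (31.6, 25.7 and 19.2 TPM) followed. Among chloride channels Clic1 was at 263, 213 and 243 TPM and Ano1, a calcium-activated channel, at 71.1 ± 10.7 TPM, and among cation and mechanosensitive channels Tmem63a at 86.5 ± 11.3 TPM and Cacna2d1 at 72.1 ± 6.38 TPM. The ABC transporter Abca8a was at 193 ± 33.3 TPM. Gja1 (connexin 43), which joins keratocytes into a network, was at 166.96, 203.46 and 249.90 TPM and made up 81.4% of the connexins and pannexins.

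Secreted signaling genes held 3.00%, 2.38% and 2.16% of the transcripts (2.51 ± 0.437%), and 161 of 250 reached 1 TPM. The class was dominated by binding proteins and antagonists, which held 2.51%, 1.88% and 1.63%, and Igfbp2 alone made up 76.3% of these. The order of the 3 libraries in the class was that of Igfbp2. Other members of this list included Igfbp4 at 1824, 1944 and 1448 TPM, the Wnt antagonist Dkk2 at 1003, 1045 and 1220 TPM, Fstl1 at 500.4, 477 and 591 TPM, the protease Htra1 at 426 ± 53.7 TPM and the BMP regulator Bmper at 322 ± 31.9 TPM. Of these, Dkk2, Fstl1 and Bmper were highest in replicate 3.

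Growth factors and morphogens held only 0.234 ± 0.0149%, and 61 of 100 reached 1 TPM. Wnt5a, a ligand of noncanonical Wnt signaling, was at 561.38, 652.06 and 727.58 TPM and Wnt11, of the same kind, at 392.07, 381.69 and 339.48 TPM. They were followed by Bmp3 (214, 263 and 273 TPM), Mdk (midkine, 176 ± 17.0 TPM), Igf2 (144 ± 13.4 TPM) and Hbegf (82.0 ± 20.4 TPM). Igf1, the ligand that Igfbp2 and Igfbp4 also bind, was at 0.910, 1.88 and 4.56 TPM. Of the guidance ligands, 29 of 40 reached 1 TPM, led by Sema3c at 446 ± 68.6 TPM, Efna1 at 132 ± 21.2 TPM and netrin Ntn1 at 131 ± 11.9 TPM. Chemokines and cytokines held 0.142 ± 0.0109%, with 47 of 79 at 1 TPM or more. Il1b was the highest at 263.44, 207.88 and 208.73 TPM, then Ccl2 at 116 ± 24.4 TPM and Cxcl2 at 109 ± 23.3 TPM. Il1b and the chemokine Ccl4 (74.8 ± 1.55 TPM) are products of myeloid cells, whose markers are given above.

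**Figure D3:**
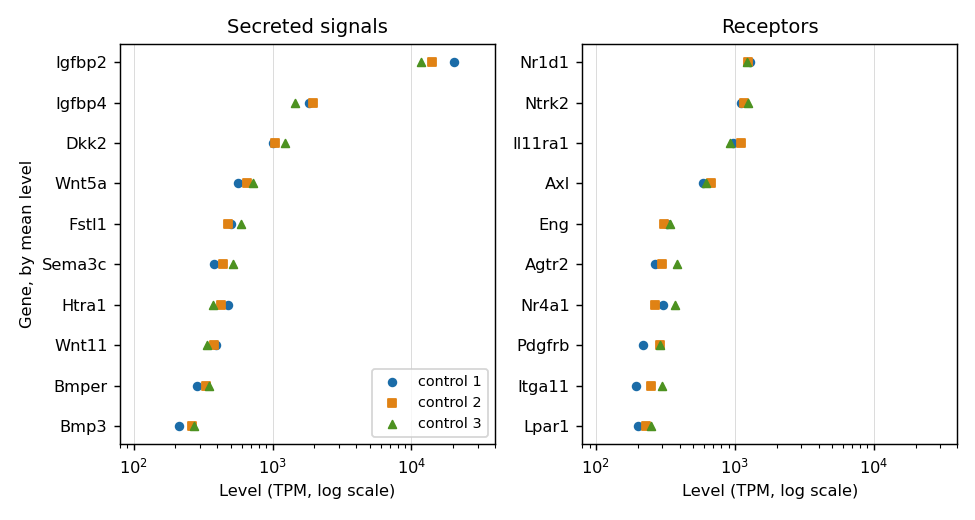
The level in TPM (log scale, the same range in each panel) of the 10 most abundant secreted signaling genes and receptors in control keratocytes, with 1 symbol for each of the 3 control libraries. Igfbp2 lay between 11675 and 20354 TPM, whereas the highest receptor, Nr1d1, lay between 1222 and 1276 TPM.

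Receptor genes held 1.17%, 1.25% and 1.31% of the transcripts (1.24 ± 0.0686%), and 257 of 362 reached 1 TPM. As a share of counts, which is not per length, they held 2.29%, above the 1.98% of the signaling genes, whereas in TPM they were below them. Receptor tyrosine kinases held 0.335 ± 0.0242%. Ntrk2 (TrkB), the receptor of brain-derived neurotrophic factor, was at 1114, 1156 and 1250 TPM and made up 35.0% of them. Its ligands Bdnf and Ntf5 had no count in any library. Axl was at 589.25, 673.12 and 616.04 TPM, and its ligand Gas6 was at 41.0 ± 5.23 TPM. Pros1 (protein S), listed like Gas6 with the growth factors, was at 77.0 ± 24.6 TPM. The PDGF receptors Pdgfrb and Pdgfra were at 265 ± 42.3 and 101 ± 34.7 TPM, and their ratio ranged from 3.36 in replicate 1 to 2.16 in replicate 3. Ddr2, a receptor for fibrillar collagen, was at 188 ± 24.9 TPM and Fgfr1 at 121 ± 19.4 TPM. Kdr and Csf1r, also in this list, mark endothelial and myeloid cells.

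Cytokine and chemokine receptors held 0.276 ± 0.0129%. Il11ra1, the interleukin 11 receptor, was at 961.56, 1114 and 928.80 TPM and made up 36.3%, and its signaling partner Il6st (gp130) was at 202 ± 27.2 TPM. Il11 itself was found in replicate 3 alone, with 20 counts. Tnfrsf1a had 219.5 ± 17.1 TPM, the growth hormone receptor Ghr 147 ± 23.2 TPM and Ifngr1 119 ± 3.13 TPM. Of the TGF-beta family receptors, endoglin (Eng, at 322, 307 and 343 TPM) and Tgfbr2 (151 ± 14.1 TPM) stood above Tgfbr1 (33.2 ± 4.97 TPM), and Bmpr1b and Acvr1c had no count. Wnt and Notch receptors were low, at 0.0216 ± 0.000206%, with Notch2 at 118 ± 6.35 TPM and Fzd2 at 25.1 ± 1.10 TPM. Ror2, a Wnt5a receptor listed with the tyrosine kinases, was at 20.4 ± 2.17 TPM.

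Integrins held 0.0946 ± 0.0115%. The collagen-binding chain Itga11 was the highest at 195.53, 250.46 and 299.85 TPM, followed by its partner Itgb1 at 162.13, 170.62 and 214.71 TPM. Both were highest in replicate 3. Among G protein-coupled receptors 54 of 92 reached 1 TPM. Agtr2, the type 2 angiotensin receptor, was at 267.04, 301.17 and 381.75 TPM, 144 ± 57.7 times above Agtr1a at 1.27, 2.53 and 3.69 TPM. Next came the lysophosphatidic acid receptor Lpar1 (226 ± 23.6 TPM), Adgre5 (149 ± 22.6 TPM) and the endothelin receptor Ednrb (127 ± 11.7 TPM), and lower in the list the other endothelin receptor, Ednra (81.7 ± 10.9 TPM). Nrp1, a semaphorin and VEGF co-receptor, was at 145 ± 24.2 TPM.

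Nuclear receptors held 0.235 ± 0.00400%. Nr1d1 (Rev-erb alpha), a repressor of the circadian clock, made up 53.0% of them at 1276, 1243 and 1222 TPM. Nr4a1 was at 315 ± 54.4 TPM, Nr1h2 at 166 ± 21.4 TPM and the retinoic acid receptor Rarg at 132 ± 23.4 TPM. Of 100 transcription regulators of periocular and mesenchymal cells in the table, 72 reached 1 TPM. The glucocorticoid-induced Tsc22d3 (GILZ) was the highest at 1203, 1366 and 1248 TPM, then Id3 at 499 ± 54.1 TPM. Of the factors known for the development of the anterior eye, Tfap2b was at 325.53, 242.79 and 265.08 TPM, highest in replicate 1, whereas Foxc1 was at 3.72 ± 0.550 TPM. Nfix (227 ± 16.0 TPM), Tcf4 (178 ± 16.8 TPM), Twist2 (168 ± 35.3 TPM), Nfe2l2 (151 ± 26.8 TPM), Snai1 (149.5 ± 29.0 TPM) and Nfic (141 ± 12.7 TPM) were also among the 10 highest. Prrx1, whose regulatory sequence drives the Cre of the series, was at 122.93, 132.02 and 139.38 TPM, so the gene was transcribed in all 3 control libraries. In this list 37 of 72 genes were highest in replicate 1.

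Lists that mark a state of the cell were read in the same way. Of 20 mitotic genes, 14 had a mean under 1 TPM, and Mki67 was at 0.2 to 0.67 TPM. Immediate early genes, which are induced rapidly by growth factors and by stress, were all above 1 TPM and together held 1.11%, 1.06% and 1.22%. Fos was at 2628, 2506 and 3144 TPM, Egr1 at 2646, 2477 and 2653 TPM, and the mean of Ier3, Junb and Dusp1 between 908 and 961 TPM. The heat shock genes, of which all 13 were at 1 TPM or more, held 0.390 ± 0.0367%, with Hspa8 at 1717 ± 89.6 TPM and Hspa1a at 528.41, 507.47 and 706.93 TPM. Hspa1a and Hspa1b are near-identical copies, so that the ratio between them, 63.3 ± 13.6, depends on how reads were divided. Genes of myofibroblasts, the contractile cells of corneal scars, held 0.166 ± 0.00434%: Vim was at 727 ± 50.3 TPM, Fn1 at 302 ± 52.9 TPM and Acta2, alpha smooth muscle actin, at 89.2, 84.8 and 76.3 TPM, while Tnc was at 0.613 ± 0.367 TPM.

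The spread between the libraries fell with the level of a gene. The coefficient of variation (CV, the SD divided by the mean TPM) had a median of 58.6% over genes between 1 and 3 TPM and of 8.21% over genes at 1000 TPM or more. Counting error alone would give 13.9% and 0.537%, and it stayed below the measured spread in every range of levels. Over all 12791 genes at 1 TPM or more the median CV was 22%, against 4.54% from counting. In counts, the median biological coefficient of variation, which removes counting error, was 26.4% over 12354 genes. It was 13.3% for SLRPs, 13.7% for enzyme crystallins, 14.1% for immediate early genes and 16.2% for matrix glycoproteins, and 37.8% for growth factors and 42.4% for potassium channels, which are low lists.

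**Figure D4:**
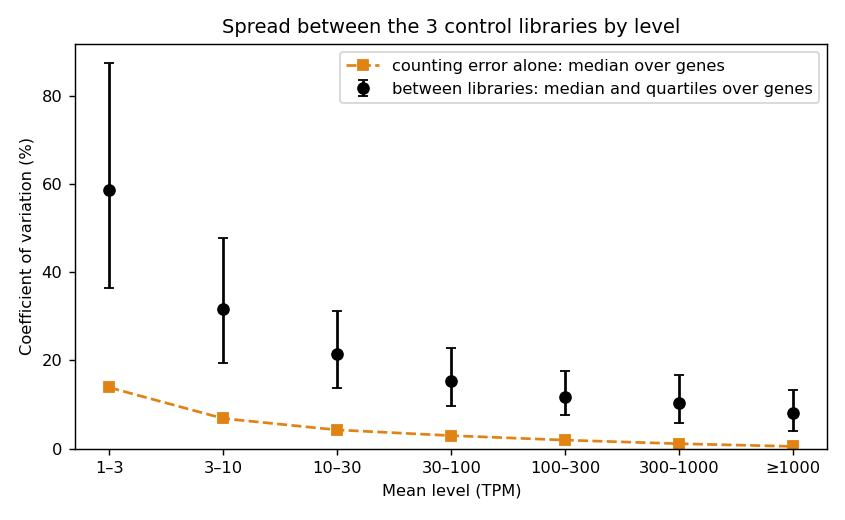
The coefficient of variation of TPM between the 3 control libraries (percent) against the mean level in 7 ranges of TPM, as the median over genes with bars from the lower to the upper quartile, and the median expected from counting error alone. The measured median runs from 58.6% down to 8.21% and lies above counting error in each range.

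Among 2905 genes with a mean of at least 50 TPM, 1120 had a CV under 10% and 149 over 30%. The 10 steadiest were Tnmd, Jak1, BC004004, Klc1, Fam169a, Hacd3, Abhd14a, Dpep1, Cuedc2 and Cnn3. Dpep1, a membrane dipeptidase, was at 1154, 1138 and 1143 TPM and Jak1, a cytokine receptor kinase, at 99.6, 99.2 and 99.5 TPM. The 10 most variable were Ndufa3, Cops9, Rps28, Rpl34-ps1, Rps29, Rpl39, Rpl36, S100a8, Tmem256 and Uqcr11, all highest in replicate 1. Ndufa3, a subunit of respiratory complex I, was at 217, 58.5 and 50.6 TPM and Rps28, a ribosomal protein, at 188, 66.7 and 58.0 TPM. S100a8, a calcium-binding protein of neutrophils, was at 133, 53.5 and 59.5 TPM.

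Most of the variable genes were short. Of the 100 genes with the largest CV, 70 were highest in replicate 1, as were 1046 of all 2905, and 69 had transcripts under 1000 bases, against 22.7% of the 2905 genes. Their median length was 361 bases against 1741. Relative to the mean of each gene on the log2(TPM + 1) scale, transcripts under 500 bases had a median difference of 0.32 in replicate 1, 0.049 in replicate 2 and -0.34 in replicate 3. Those of 4000 to 8000 bases had -0.057, -0.017 and 0.10. The ribosomal protein genes, which are short, held 3.18%, 2.75% and 2.04% of the libraries. Of the 85 at 1 TPM or more, 71 were highest in replicate 1 and 81 lowest in replicate 3. Matrix genes were in the opposite order, with the largest share in replicate 3, and the part of transcript length in their difference was not tested.

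**Figure D5:**
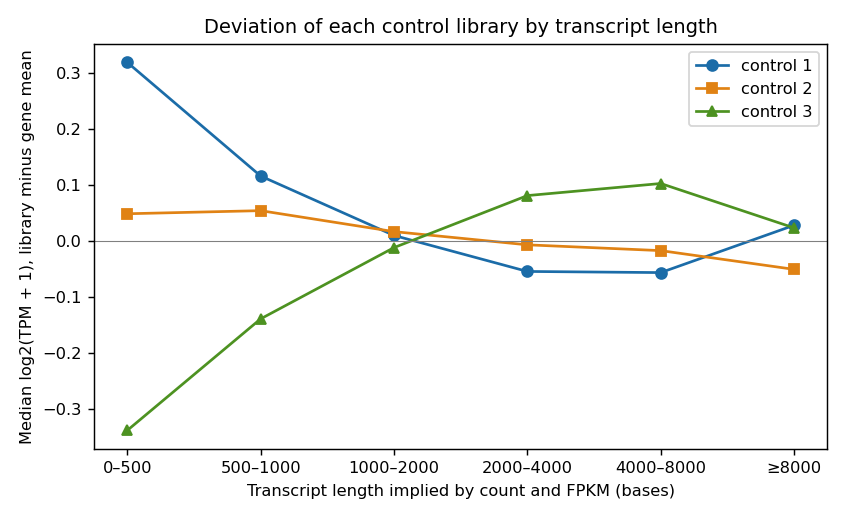
The median difference of each control library from the mean of each gene, on the log2(TPM + 1) scale, against transcript length in bases, over genes in 6 ranges of length. Replicate 1 lies highest (0.32) and replicate 3 lowest (-0.34) for transcripts under 500 bases, and the order of these libraries is turned between 2000 and 8000 bases.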

How the data were processed

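RNA of sorted keratocytes from 3 control samples (in the labels 10 weeks old, 3 doses of tamoxifen, 1 month) was analysed, and samples were grouped by their titles. Replicates are separate samples in the labels and biological replicates per the study's methods. The deposited table holds, per gene and library, expected counts, FPKM and TPM that the authors made with Bowtie2 (2.2.5) and RSEM (1.2.12), with build mm9 per the submitters' processing notes. Annotation release and strand setting are not given in the sources used here, so overlapping and antisense genes are uncertain. The labels name a TruSeq kit, the study's methods ribosomal depletion and a BGISEQ instrument, and no value settles which. The authors' expected counts were not whole for 17.6% to 18.3% of the genes, where reads were divided between similar sequences. The authors' group averages and comparison columns were not used, nor were the other libraries. No column lacked a sample.

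TPM was used as deposited, since levels of different genes must be compared per length. Shares are percent of a library's TPM. Expected counts were rounded for edgeR (4.0.16, R 4.3.3), which gave the biological coefficient of variation with TMM scaling (factors 1.03, 0.998 and 0.973), filterByExpr and an intercept only. Transcript length was taken from the ratio of deposited count to FPKM. No mitochondrially encoded or replication-dependent histone symbols were matched in the table, nor was Xist. Scripts (Python 3.11.15, pandas 2.3.3) were tested on simulated data. Promoter windows came from RefSeq (GRCm38.p6), with 13810 of 17606 genes matched.

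Genes were named by a rule: the 30 highest by mean TPM, up to 6 highest of each list, the defining members of marker lists, the 10 highest signaling, receptor and regulator genes, and the 10 largest and 10 smallest CVs at 50 TPM or more. Col2a1, Bgn's relatives Aspn and Omd, Col4a2, Lox, Chst1, Chpf, Aqp5, Igf1, Bdnf, Ntf5, Gas6, Pros1, Il11, Acvr1c, Bmpr1b, Agtr1a, Ror2, Foxc1, Prrx1, Pdgfra, Col8a1, Tnc, Fgfr1, Car12, Dsp, Aldh1a1, Ednra, Hspa1b, Mki67 and the lens crystallins at 0 were added after their values were seen. Some members that the rule takes are not reported here. Members and lists were chosen with earlier results of these data known. Alternatives were shares of counts or FPKM, other thresholds, scalings, filters and a DESeq2 (1.42.0) dispersion, and leaving out each replicate.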

Additional observations from a re-analysis of the deposited data

How the results depend on the processing

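Of 66 alternatives to 11 results, 56 kept the value within a set limit. For shares and the ratio of Col1a1 to Col1a2 this was the SD over the 3 libraries, and for counts of genes 1.5 times. For the median coefficients of variation it was the SD of the medians with 1 replicate left out. Some alternatives could not fail. Leaving out 1 of 3 libraries always moves the mean of a class share or of the ratio by less than the SD. FPKM gives the shares and ratio of TPM, apart from rounding. As shares of expected counts, which are not per length, matrix genes held 23.5%, crystallins 2.91%, transport genes 2.65%, signaling genes 1.98% and receptors 2.29%. The 10 most abundant genes ranked by counts held 21.5% of the counts, and the 10 ranked by TPM, 8 of them shared, 21.1%. The ratio of Col1a1 to Col1a2 was 2.57 in counts. The median biological coefficient of variation was 32.8% without a filter beyond 1 count and ranged from 22.7% to 29.9% when 1 replicate was left out, lowest without control replicate 1. The median CV of TPM was 17.0% over genes at 10 TPM or more. No paired analysis was possible because only 1 group was described and no result comes from a test. With 3 libraries an SD is itself imprecise, and genes between 1 and 3 TPM had a median CV of 58.6%, so single low levels are uncertain.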

Other observations

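Complement genes held 0.735%, 0.691% and 0.806% of the transcripts of control keratocytes, and 22 of 28 in the table reached 1 TPM. Serping1, the C1 inhibitor, made up 58.8% of the list at 4413, 4006 and 4711 TPM. The proteases of the C1 complex were next, with C1s1 at 822.68, 843.14 and 1190 TPM and C1ra at 589.87, 616.91 and 833.31 TPM, both highest in replicate 3. The recognition chains C1qb (333 ± 44.8 TPM), C1qa (301 ± 53.5 TPM) and C1qc (162 ± 34.8 TPM), which macrophages make, are also among the leukocyte markers, and C1qb and C1qc were highest in replicate 1. Of 18 genes of MHC class I and its loading complex, 17 reached 1 TPM and the list held 0.548 ± 0.00891%, led by B2m at 1966 ± 124 TPM and H2-D1 at 1257 ± 153 TPM. Class I genes share much of their sequence, so single levels are uncertain.

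Genes of glycolysis and the response to low oxygen held 0.384 ± 0.0213%. Aldoa, a glycolytic aldolase, was at 1467, 1455 and 1245 TPM, and the glucose transporter Slc2a1 at 210.66, 209.92 and 226.56 TPM. Some genes had no count in 1 library only: the potassium channel gene Kcns3, chosen after its values were seen, had 0, 195 and 263 counts.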
